A study of Mus musculus with 10 samples.

Results

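The 9 genes described here are the skeletal muscle regulators Myod1, Myog, Myf5, Myf6, Pax7, Pax3 and Mef2c and the myoblast fusion genes Mymk and Mymx, read in sarcomas of 2 mouse models. They were chosen by name, as the rows of the deposited count table that carry these symbols, and they are 9 of its 56750 features. All 9 had enough counts to be tested.

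Myod1, Myog, Myf5 and Myf6 encode the myogenic regulatory factors (MRFs), basic helix-loop-helix proteins that pair with E proteins, bind the E-box and switch on the genes of skeletal muscle. Pax3 and Pax7 act before them in muscle progenitors and in satellite cells, the stem cells of adult muscle, in which Myf5 and Myod1 mark commitment, Myog marks entry into differentiation, and Myf6 (also called Mrf4) is the MRF of mature fibers. Mef2c is a partner of the MRFs that is also active in other tissues, and Mymk and Mymx encode the membrane proteins with which myoblasts fuse.

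RNA from flash-frozen tumors was depleted of ribosomal RNA and sequenced in bulk, with each tumor's RNA divided into duplicate libraries. The dFLEx group held 3 tumors (170019, 170024 and 170025) with the genotype dFLEx CDS +/-, in which a CIC::DUX4 fusion under the CAG promoter becomes active after recombination by both Cre and FLP. Per the study's methods, the recombinases were delivered as plasmids electroporated into the gastrocnemius, a hind limb muscle. The KP group held 2 tumors (3800 and 3802) of the KP model, whose genotype includes p53fl/fl, the floxed p53 gene, and how these tumors were induced is not given in the sources used here. The labels give the tissue as tumor in both groups. No normal muscle was among the samples used here, so each difference below is between the 2 models.

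The duplicates of a tumor were summed, so n is the number of tumors. The sums ran from 20503474 counts (3802, for which 1 library was used) to 82138251 (170025). Counts on the CIC::DUX4 construct ran from 4238 to 33600 in the dFLEx tumors and were 0 and 6 in the KP tumors 3800 and 3802. Reads on olfactory and vomeronasal receptor genes, taken as a background of stray reads, were at 0.128 CPM per kilobase in 3802 and at 0.00269 to 0.0203 in the other tumors. CPM below are counts scaled to a common library total by TMM, and log2 fold changes are dFLEx over KP from the quasi-likelihood test of edgeR, with Benjamini-Hochberg adjustment over 24743 genes.

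The proximal promoters of Myog and Myf5, the pair of members with the lowest p, are printed here because they differ in E-boxes, the sites that MRFs bind. Both are the 250 bases before the start of the gene in RefSeq on GRCm38.p6, 5′ to 3′ on the gene's strand, with each E-box (CANNTG, which reads the same on both strands) in capitals.
Myog, chr1:134289754-134290003, plus strand: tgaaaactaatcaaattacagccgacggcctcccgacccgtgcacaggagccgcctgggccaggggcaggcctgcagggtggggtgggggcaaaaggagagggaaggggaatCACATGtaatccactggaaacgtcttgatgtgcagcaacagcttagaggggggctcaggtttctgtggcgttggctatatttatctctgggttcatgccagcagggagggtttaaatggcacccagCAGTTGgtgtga
Myf5, chr10:107486135-107486384, minus strand: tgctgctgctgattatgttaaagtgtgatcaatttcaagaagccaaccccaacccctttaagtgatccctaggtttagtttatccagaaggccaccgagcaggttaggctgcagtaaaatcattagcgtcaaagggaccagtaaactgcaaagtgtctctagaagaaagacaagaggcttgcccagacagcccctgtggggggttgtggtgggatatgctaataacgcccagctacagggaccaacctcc

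The Myog window held E-boxes that begin 138 and 12 bases before the start, and the Myf5 window held none. Of 32851 mouse promoters in the same table, 66.2% held at least 1 E-box in the same 250 bases, so its presence before Myog is common. The octamers TGAATGAA and TGAATGGA, the sites of CIC, were in 2.07% of those windows on either strand and in none of the windows of Myog, Myf5, Pax7 and Mef2c. The table has no entry for Myod1, Myf6, Pax3, Mymk and Mymx.

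Myf5, Myog, Myod1, Mymk and Mymx were lower in every dFLEx tumor than in either KP tumor, and Myf6 was higher in every dFLEx tumor. Pax7, Pax3 and Mef2c overlapped between the groups. None of the 9 genes passed an adjusted p of 0.05, where 0.182% of the tested genes did (45 genes). At an unadjusted p of 0.05, 6 of the 9 were past the threshold, beside 10.6% of all tested genes (2617). Across all tested genes 11.7% were lower and 13.7% higher in every dFLEx tumor, against 5 and 1 of these 9. On the same tumor sums DESeq2 called 4 of the 9 genes (Myod1, Myog, Myf5 and Mymk), beside 6.25% of the 22335 genes to which it gave an adjusted p. The same 4 genes were called by limma-voom on the libraries with the tumor as a random term, beside 2.78% of 19538 genes.

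Myod1 (ENSMUSG00000009471, GRCm39 chromosome 7, 46025898 to 46028523, plus strand), which can turn other cells into myoblasts, was at 1.74, 16.2 and 5.87 CPM in the dFLEx tumors 170019, 170024 and 170025. It was at 69.7 and 54.3 CPM in the KP tumors 3800 and 3802. The lower KP tumor stood 3.36-fold above the highest dFLEx tumor, while the dFLEx tumors themselves spread over 9.28-fold. The log2 fold change was -2.97 ± 0.89 (SE, n = 3 and 2; adjusted p = 0.256, edgeR).

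Myog (ENSMUSG00000026459, chromosome 1, 134217727 to 134220286, plus strand) encodes myogenin, the factor without which myoblasts do not form fibers. It was at 6.82, 16.8 and 6.88 CPM in the dFLEx tumors, and at 112 and 254 CPM in the KP tumors. The groups were far apart, with the lower KP tumor 6.65-fold above the highest dFLEx tumor and an 18-fold ratio of the means. Its log2 fold change was -4.17 ± 0.72 (adjusted p = 0.0840, edgeR).

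Myf5, the earliest MRF of the embryo, showed the widest separation. It was at 0.174, 0.798 and 0.391 CPM in the dFLEx tumors, from 7, 46 and 31 counts, and at 50.04 and 22.2 CPM in the KP tumors, from 3725 and 546 counts. Its mean was 79.5-fold higher in KP, and the lower KP tumor was 27.8-fold above the highest dFLEx tumor. The log2 fold change of -6.30 ± 0.88 had an adjusted p of 0.0517 (edgeR). With the KP tumor 3802 left out, the adjusted p was 0.0144, and with 170024 left out it was 0.159.

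Myf6, the MRF of mature fibers, differed in the other direction. It was at 15.3, 64.9 and 21.5 CPM in the dFLEx tumors and at 2.08 and 11.3 CPM in the KP tumors. The groups did not overlap, but the gap was narrow, with the lowest dFLEx tumor 1.35-fold above 3802. The log2 fold change of 2.34 ± 1.01 (adjusted p = 0.467, edgeR) was 1.40 without 170024 and 4.04 without 3802. Myf5 and Myf6 are neighbors on the minus strand of chromosome 10, at 107318769 to 107321995 and 107328714 to 107330598, with 6718 bases between them. In the dFLEx tumors Myf6 had 55 to 88 counts for each count of Myf5, and in KP it had 0.0416 (3800) and 0.511 (3802). The 88 was that of 170019 and rests on 7 counts of Myf5. At that tumor's rate of stray reads, 2.005 of the 7 would be background.

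**Figure D1:**
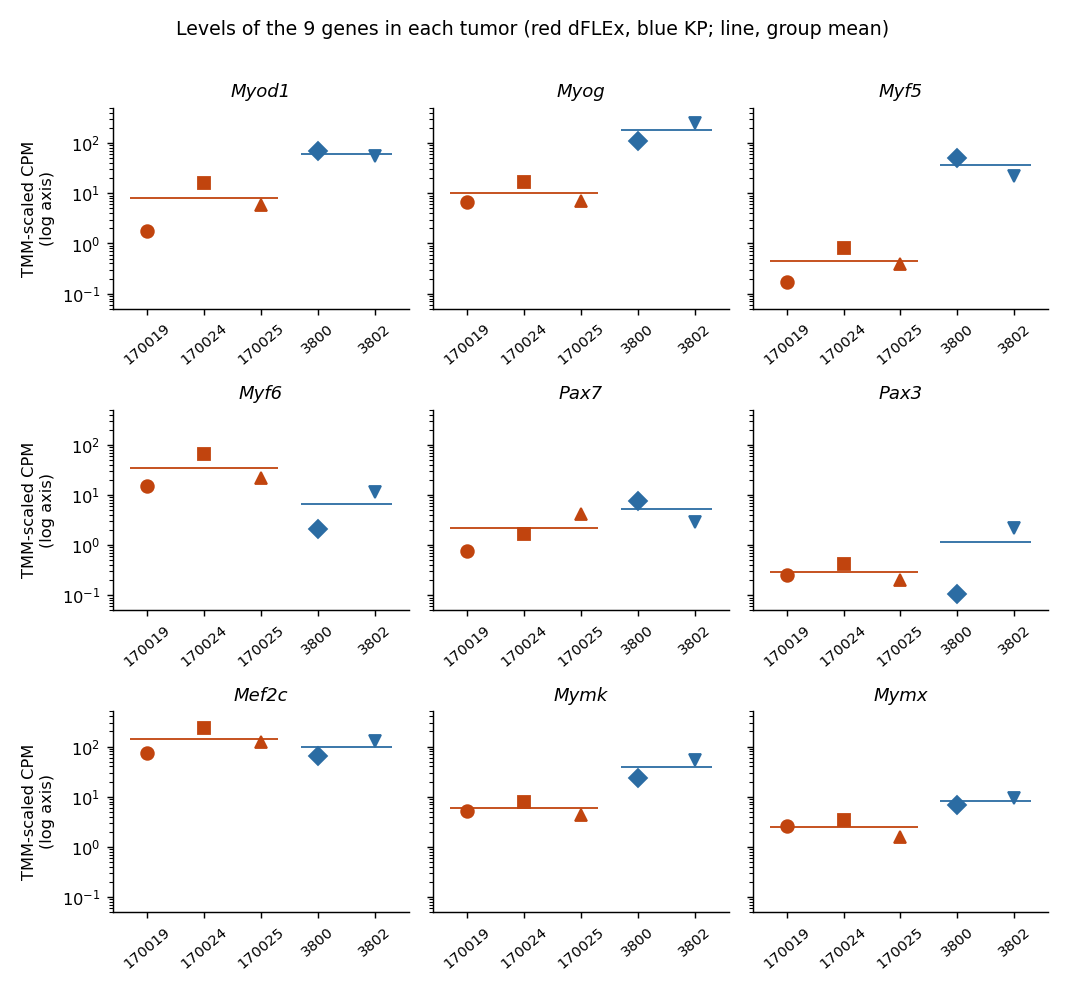
TMM-scaled CPM (log axis) of the 9 genes in each tumor, with dFLEx tumors in red, KP tumors in blue and a line at each group mean. Myod1, Myog, Myf5, Mymk and Mymx sit lower in all 3 dFLEx tumors than in both KP tumors, Myf6 sits higher, and Pax7, Pax3 and Mef2c overlap.

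The make-up of the MRFs also differed between the models, and it does not depend on how the libraries are scaled. Of the counts on the 4 MRF genes, Myf6 took 63.7% in 170019 (95% Wilson interval 60.6% to 66.7%), 65.8% in 170024 (64.5% to 67.0%) and 62.1% in 170025 (60.2% to 63.8%). In KP it took 0.891% in 3800 (0.762% to 1.04%) and 3.31% in 3802 (2.95% to 3.72%). The 3 dFLEx tumors had nearly the same share of Myf6 although its level differed 4.23-fold among them. Reads are not independent molecules, so these intervals cover counting error only.

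Myog took the next largest share in the dFLEx tumors, at 28.3%, 17.1% and 19.9%, and was the leading MRF in KP, at 47.9% and 74.3%. Myod1 took 7.24%, 16.4% and 17.0% in dFLEx and 29.8% and 15.9% in KP, so its share overlapped. Myf5 took 0.724% to 1.13% in dFLEx, and 21.4% and 6.49% in KP. The KP tumors thus differed from each other, with Myod1 and Myf5 together larger in 3800 and Myog larger in 3802. Per exon length, Myf6 remained the leading MRF in each dFLEx tumor at 68.2% to 71.7% and the smallest in each KP tumor, at no more than 4.10%.

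**Figure D2:**
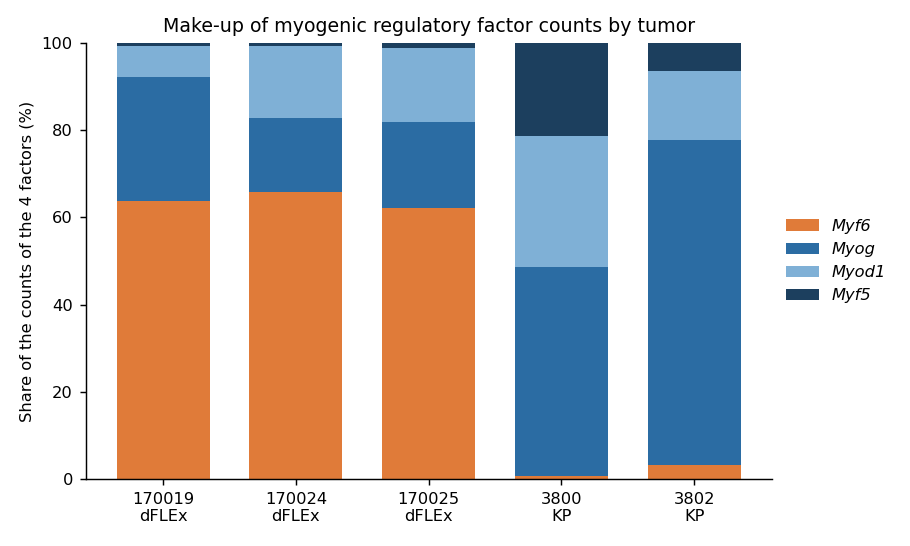
Share (%) of the counts on the MRF genes Myf6, Myog, Myod1 and Myf5 in each tumor, stacked to 100%. Myf6 fills 62.1% to 65.8% of the bars of the dFLEx tumors and 0.891% and 3.31% of those of the KP tumors, where Myog is the largest part.

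The muscle progenitor factors were low in both groups. Pax7 (chromosome 4, 139464373 to 139560839, minus strand), the satellite cell factor, was at 0.771, 1.65 and 4.12 CPM in dFLEx and at 7.52 and 2.93 CPM in KP. The dFLEx tumor 170025 lay above the KP tumor 3802, and the log2 fold change was -1.26 ± 0.87 (adjusted p = 0.776, edgeR). Without 3800 it was -0.24. At the rate of stray reads of each tumor, 15.4 of the 72 counts of Pax7 in 3802 and 5.64 of the 31 in 170019 would be background.

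Pax3 (chromosome 1, 78077904 to 78173771, minus strand), its relative of the embryonic muscle precursors, had 10, 24 and 16 counts in dFLEx and 8 and 54 counts in KP, or 0.249, 0.416 and 0.202 CPM against 0.108 and 2.19 CPM. The KP tumors bracketed the dFLEx tumors. At the rate of stray reads of each tumor, 16.2 of the 54 counts in 3802 and 5.95 of the 10 in 170019 would be background, so the counts were 1.68-fold to 11.7-fold above that rate. The log2 fold change of -1.97 ± 1.37 (adjusted p = 0.776, edgeR) became 1.43 without 3802. No direction can be read for Pax3 at this depth.

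Mef2c (chromosome 13, 83652153 to 83815199, plus strand) was at 74.7, 232 and 122 CPM in dFLEx and at 65.5 and 128 CPM in KP. The tumors of the models were interleaved, with 3802 between 170025 and 170024. The log2 fold change of 0.57 ± 0.68 (adjusted p = 0.896, edgeR) was -0.01 without 170024. Mef2c also serves endothelial cells, neurons and immune cells. The endothelial markers given below had a higher sum in every dFLEx tumor, and 3 of the 8 were higher in each. Their sum was highest in 170025, and Mef2c was highest in 170024. The part of endothelial cells in the level of Mef2c was not tested.

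The fusion genes were lower in dFLEx as Myog was. Mymk (chromosome 2, 26951648 to 26962191, minus strand) encodes myomaker, which joins the outer leaflets of myoblast membranes, and was at 5.27, 7.98 and 4.41 CPM in dFLEx and at 23.4 and 54.0 CPM in KP. The lower KP tumor was 2.94-fold above the highest dFLEx tumor, and the log2 fold change was -2.72 ± 0.65 (adjusted p = 0.161, edgeR). Mymx (chromosome 17, 45911897 to 45913028, minus strand) encodes myomixer, the micropeptide that opens the fusion pore. It was at 2.64, 3.40 and 1.54 CPM in dFLEx and at 6.81 and 9.26 CPM in KP, with a log2 fold change of -1.67 ± 0.64 (adjusted p = 0.406, edgeR).

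The ratio of the KP mean to the dFLEx mean was 6.58 for Mymk and 3.18 for Mymx, beside 18 for Myog. For each count of Myog there were 0.774, 0.474 and 0.641 counts of Mymk in the dFLEx tumors and 0.210 and 0.212 in the KP tumors. For each count of Mymk there were 0.349 to 0.50 counts of Mymx in dFLEx and 0.291 and 0.172 in KP. Neither ratio overlapped between the groups.

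**Figure D3:**
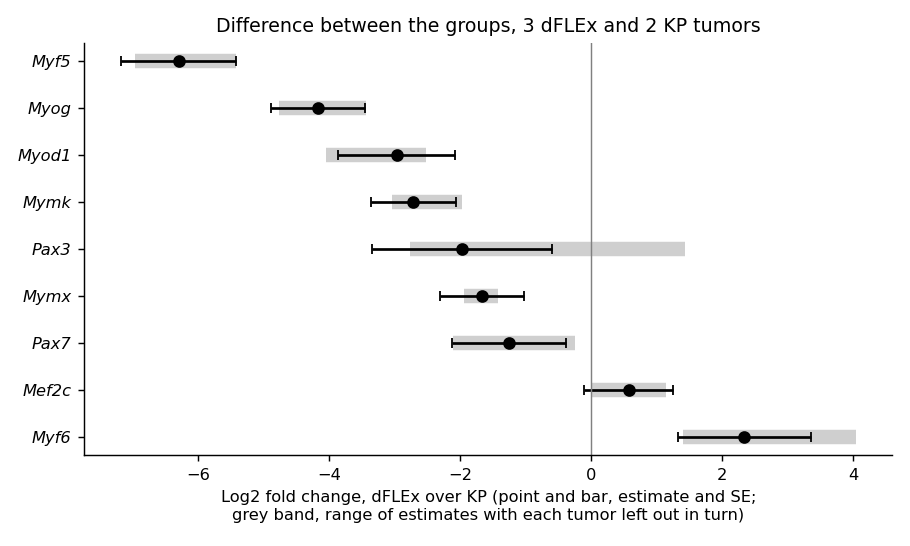
Log2 fold change (dFLEx over KP) of each gene with its SE (points and bars, 3 dFLEx and 2 KP tumors), over a grey band for the range of estimates when each tumor was left out in turn. Myf5 at -6.30, Myog at -4.17, Myod1 at -2.97, Mymk at -2.72 and Mymx at -1.67 stay below 0 across their bands, while the bands of Pax3 and Mef2c reach past 0.

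Per kilobase of exon, which allows a rough comparison between genes, Myf6 was the highest of the 9 in dFLEx at 26.8 ± 21.4 CPM per kilobase (SD, n = 3). Length was that of all annotated exons of a gene, 15715 bases for Mef2c and 1263 for Myf6. A gene whose transcripts are shorter than that reads too low. On this length Myf6 exceeded Mef2c in each of the 3 tumors, although their ranges overlapped. In CPM Mef2c was the higher in each. Myf6 was followed by Mef2c at 9.11 ± 5.14, Myog at 6.80 ± 3.85, Myod1 at 4.26 ± 3.99, Mymk at 3.90 ± 1.23 and Mymx at 2.46 ± 0.911. Neighbors in that order from Mef2c to Mymx overlapped among the tumors. Pax7 (0.372 ± 0.296), Myf5 (0.218 ± 0.152) and Pax3 (0.0467 ± 0.0182) closed the order, and Pax7 and Myf5 overlapped too.

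In KP, Myog was the highest at 122 ± 67.4 CPM per kilobase (SD, n = 2) and lay above all others in both tumors. Myod1 at 33.3 ± 5.83, Mymk at 25.6 ± 14.3 and Myf5 at 17.3 ± 9.46 came next, with overlap between neighbors. Mymx at 7.83 ± 1.69, Mef2c at 6.15 ± 2.81 and Myf6 at 5.31 ± 5.18 overlapped one another. Pax7 at 0.892 ± 0.555 and Pax3 at 0.186 ± 0.239 were last. On this length Myf6 thus stood at rank 1 of 9 in dFLEx and at rank 7 in KP.

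Among the dFLEx tumors, 170024 had the highest level of 8 of the 9 genes, all but Pax7, and 170019 the lowest of 6. Among the KP tumors, 3802 was the higher for 6 genes and 3800 for 3 (Myod1, Myf5 and Pax7). Duplicates of a tumor differed by up to 1.88-fold, for Myf5 in 170024, and by no more than 1.12-fold for Myog, whose dFLEx tumors differed 2.47-fold.

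A tumor that grows in a limb muscle can hold muscle fibers, and in bulk RNA fewer cells of a type and less RNA per cell cannot be told apart. The 12 genes of the muscle fibre list (contractile and metabolic genes of mature fibers, with Acta1 and Ckm among them) summed to 8075, 32010 and 8733 CPM in the dFLEx tumors and to 1547 and 3984 CPM in the KP tumors. Of the 12, 11 had a log2 fold change above 0, with a median of 2.50 against -0.18 over all tested genes, and 7 were higher in every dFLEx tumor. None passed an adjusted p of 0.05 in edgeR, 7 had an unadjusted p under 0.05, and DESeq2 on tumor sums called 2. The largest difference was in Myh4, the fast IIb myosin heavy chain (3.17 ± 1.02, adjusted p = 0.297), and the only gene below 0 was Myh7, the slow one (-0.43 ± 0.97, adjusted p = 0.949). Reads shared by near-identical myosin genes were not counted.

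Relative to this fibre RNA, Myf6 no longer separated the models. For each 1000 CPM of the list it was at 1.90, 2.03 and 2.46 CPM in the dFLEx tumors and at 1.35 and 2.85 CPM in the KP tumors. The dFLEx values lay between those of the KP tumors. The ratio of Myf6 to the fibre list thus stayed between 1.35 and 2.85 over tumors whose fibre sums ran from 1547 to 32010 CPM.

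The other MRFs were further apart on this scale than in CPM. Fibre RNA was higher in every dFLEx tumor, so dividing by it widens the gap of any gene already lower there. Myog was at 0.844, 0.525 and 0.788 CPM for each 1000 CPM of fibre genes in dFLEx and at 72.3 and 63.8 CPM in KP, a log2 difference of -6.59. Myod1 was at 0.216, 0.505 and 0.672 CPM in dFLEx and at 45.04 and 13.6 CPM in KP, a log2 difference of -5.89. Permuting the tumors exactly (two-sided) gave p = 0.2 for each, the smallest that 3 against 2 tumors allow. Pax7, Pax3 and Mef2c, which overlapped in CPM, were lower in every dFLEx tumor once divided by fibre RNA, a quantity that was itself higher in those tumors.

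**Figure D4:**
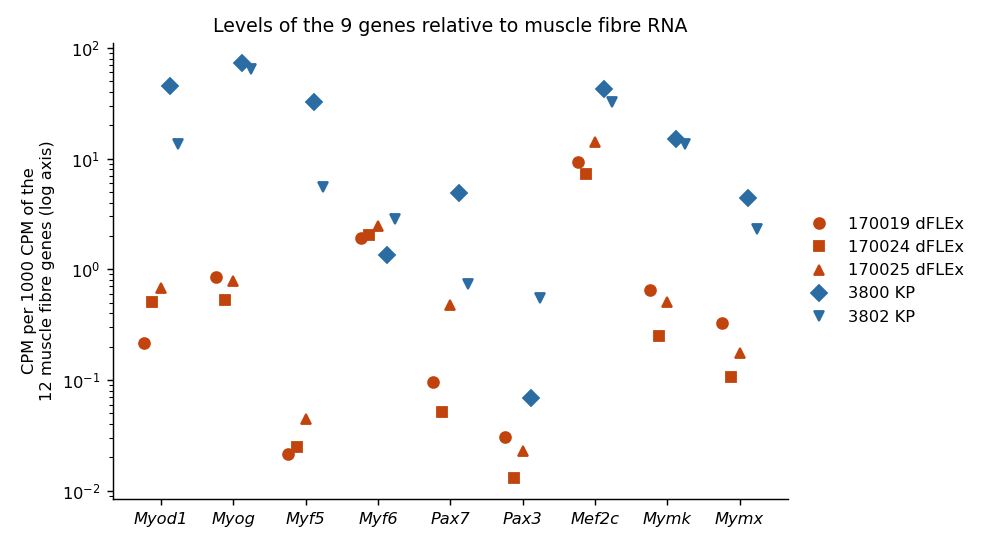
CPM of each gene for every 1000 CPM of the 12 muscle fibre genes (log axis), with dFLEx tumors in red and KP tumors in blue. The 5 tumors lie between 1.35 and 2.85 for Myf6, while all 3 dFLEx tumors lie below both KP tumors for the other genes.

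Genes that act above the MRFs were read from a list of 12, of which 11 were tested. Of these, 8 had a log2 fold change below 0, the median was -1.24, and 6 were lower in every dFLEx tumor. None passed an adjusted p of 0.05 in edgeR, 4 had an unadjusted p under 0.05, and DESeq2 on tumor sums called 3. Met, Six4, Pitx3 and Msc, named here after their values were seen, were among them. Met, the receptor that frees muscle precursors to migrate, differed most, at 1.22, 4.25 and 5.62 CPM in dFLEx and at 126 and 16.7 CPM in KP (-4.27 ± 1.01, adjusted p = 0.159, edgeR). Eya1, a transcription cofactor, was at the other end of the list (1.64 ± 0.80, adjusted p = 0.568).

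The E protein genes Tcf3 and Tcf12, whose products pair with the MRFs, overlapped between the groups, with log2 fold changes of 0.70 ± 0.62 and -1.19 ± 1.05 (adjusted p = 0.853 for both, edgeR; neither was called by DESeq2). Mef2a and Mef2b, at -0.89 ± 0.72 and 0.09 ± 1.03, overlapped as well, and so did Mef2d.

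Satellite cell markers had 11 of 14 genes below 0 and a median of -0.92. Of these, 5 were lower and 1 was higher in every dFLEx tumor. In edgeR 0 passed the adjusted p of 0.05 and 6 an unadjusted one, and DESeq2 on tumor sums called 5. Megf10, a receptor of satellite cells, was at 1.94, 2.64 and 3.36 CPM in dFLEx and at 133 and 12.6 CPM in KP (-4.78 ± 0.98, adjusted p = 0.117). The exception in the other direction was Hey1, a Notch target gene, at 167, 83.8 and 92.1 CPM in dFLEx and at 8.14 and 10.4 CPM in KP (3.62 ± 0.68, adjusted p = 0.0969). Calcr, the calcitonin receptor that quiescent satellite cells carry, was under 1 CPM in every tumor.

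Genes for proteins that hold the MRFs in check were mostly higher in dFLEx. Of 14 genes, 10 had a log2 fold change above 0, the median was 1.40, and 8 were higher in every dFLEx tumor. In edgeR 0 passed the adjusted threshold and 7 the unadjusted one, and DESeq2 on tumor sums called 6. The largest difference was in Mdfi, an inhibitor that retains MRFs in the cytoplasm, at 368, 177 and 148 CPM in dFLEx and at 20.5 and 8.82 CPM in KP (3.98 ± 0.79, adjusted p = 0.110). The lowest log2 fold change was that of Twist2 (-3.23 ± 1.31, adjusted p = 0.433), which was at 17.2 CPM in 3802 and at no more than 1.94 CPM in the other tumors.

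Chosen after its values were seen, Id1, which captures the E protein partners of the MRFs, was at 624, 368 and 171 CPM in dFLEx and at 21.3 and 34.1 CPM in KP. Id3, of the same family, was at 2259, 802 and 512 CPM against 75.3 and 149 CPM. The dFLEx tumor with the least Myod1, 170019, had the most Id1, Id3 and Mdfi. That order did not hold further, as 170024, with the most Myod1, had more Id1, Id3 and Mdfi than 170025. For each count of Id1 there were 0.00279, 0.0440 and 0.0344 counts of Myod1 in the dFLEx tumors and 3.27 and 1.59 in the KP tumors.

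Genes that MRFs switch on in differentiating muscle and at the synapse had a median of -2.37, with 11 of 15 below 0, 8 lower and 2 higher in every dFLEx tumor. At an adjusted p of 0.05 edgeR called 0 and DESeq2 on tumor sums 6, and 10 had an unadjusted p under 0.05 in edgeR. Chrng, the fetal gamma subunit of the acetylcholine receptor, was at 1.42, 3.45 and 2.07 CPM in dFLEx and at 40.8 and 86.4 CPM in KP. The groups were far apart, with a log2 fold change of -4.78 ± 0.71 (adjusted p = 0.0664, edgeR). Cdkn1c, a cell cycle inhibitor, had the largest value of the list (2.38 ± 0.73, adjusted p = 0.264).

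The subunit that replaces gamma after birth, epsilon (Chrne, named after its values were seen), was higher in dFLEx at low levels, from 54 to 157 counts against 13 and 12, with 1.34, 2.72 and 0.718 CPM in dFLEx and 0.175 and 0.488 CPM in KP. Counts of Chrng for each count of Chrne were 1.06, 1.27 and 2.88 in the dFLEx tumors and 234 and 177 in the KP tumors. The embryonic myosin Myh3 was lower in every dFLEx tumor (-2.50 ± 0.65, adjusted p = 0.197, edgeR), and the adult Myh4 was higher in every one. Myh8, another myosin of the same list as Myh3, overlapped between the groups (0.44 ± 0.92, adjusted p = 0.9455, edgeR). Myh3 and Myh8 were named after their values were seen. For each count of Myh4 there were 0.0321, 0.00747 and 0.0176 counts of the embryonic Myh3 in dFLEx and 0.692 and 0.516 in KP. In both pairs the ratio of the developmental to the adult form was higher in every KP tumor, as was that of Myog to Myf6, at 0.259 to 0.445 in dFLEx and 22.4 and 53.7 in KP.

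The fusion and adhesion list had a median of -0.71, with 6 of 9 below 0, 3 lower and 1 higher in every dFLEx tumor, 0 called by edgeR (2 at an unadjusted p under 0.05) and 2 by DESeq2 on tumor sums. Its ends were Cdh15, the cadherin of myoblasts (-4.10 ± 0.81, adjusted p = 0.109, edgeR), and Dock1, which remodels actin in fusion (1.97 ± 0.89, adjusted p = 0.509). Among 7 genes that respond to denervation and atrophy, 4 were above 0 and 3 below, with 3 higher and 2 lower in every dFLEx tumor. For this list edgeR called 0 (1 at an unadjusted p under 0.05, lower in dFLEx) and DESeq2 on tumor sums 1. Trim63, a ubiquitin ligase of atrophy, was the highest at 1.54 ± 0.85 (adjusted p = 0.649, edgeR).

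**Figure D5:**
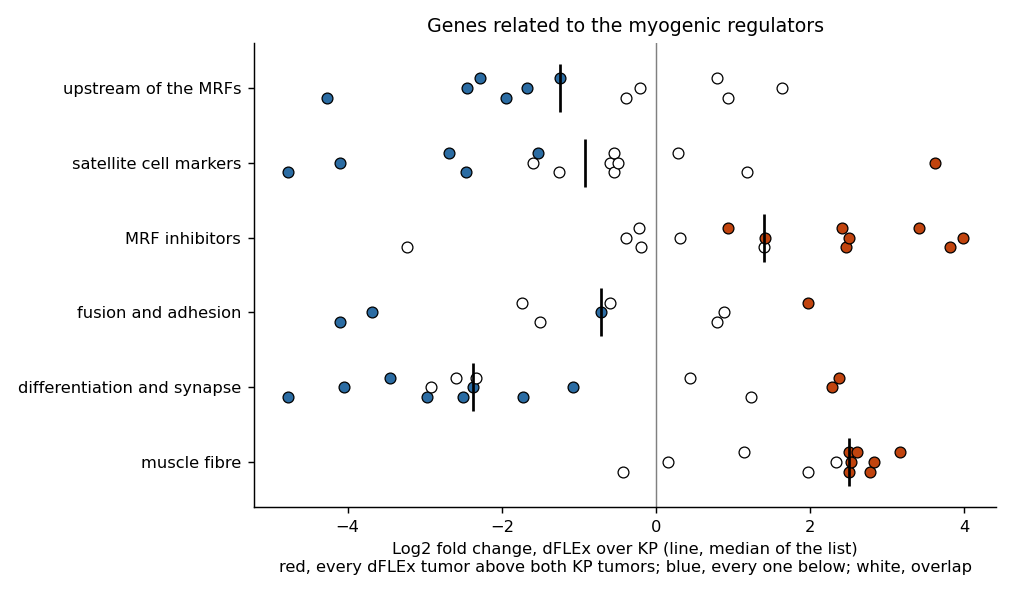
Log2 fold change (dFLEx over KP) of each tested gene in 6 lists related to the MRFs, with a line at the median of each list, filled points for genes whose groups did not overlap and open points for overlap. The medians lie at -2.37 for differentiation and synapse genes, 1.40 for MRF inhibitors and 2.50 for muscle fibre genes.

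Markers of other cells were read in the same way. The 8 endothelial markers were all above 0 (median 1.16; summed 253 to 600 CPM in dFLEx and 107 and 189 CPM in KP). Of the 8 macrophage markers, 7 were below 0 (median -1.59; 674 to 863 CPM against 1491 and 4548 CPM). Neural crest and Schwann cell markers had 6 of 8 above 0, with Sox10 under 1 CPM in every tumor, and the 4 B cell markers were all below 0 and highest in 3802 (34.7 CPM, against 2.22 to 5.93 CPM in the others). Of the 5 brown adipocyte genes 3 were above 0, and their sums overlapped. DESeq2 on tumor sums called 1 endothelial, 0 macrophage, 2 neural crest, 1 brown adipocyte and 0 B cell genes, beside 6.25% of all genes. At an adjusted p of 0.05 edgeR called 0 of each, beside 0.182% of all tested genes. In the same order, 1, 4, 2, 3 and 0 had an unadjusted p under 0.05 in edgeR, beside 10.6% of all tested genes.

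Of the 6 chondrocyte genes, 5 were above 0, and Acan, the cartilage proteoglycan, was the only gene among 125 tested related genes to pass an adjusted p of 0.05. It was at 65.0, 94.8 and 82.4 CPM in dFLEx and at 0.228 and 0.203 CPM in KP (8.52 ± 0.82, adjusted p = 0.0248, edgeR). The part of any of these cells in the differences of the 9 genes was not tested.

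By the profile over the 5 tumors, taken as log2(CPM + 0.5) centered on each gene's mean, the genes nearest to a member were found among 15263 genes. Nearest to Myf6 were Tcea3, Tmod4 and Ckm, with root mean square differences of 0.183, 0.210 and 0.210 log2 units. Nearest to Myod1 were Chrna1 (0.473), Actc1 (0.527) and Chrnd (0.532), of which Chrna1 and Chrnd encode acetylcholine receptor subunits and Actc1 the cardiac actin of developing muscle. For Myog they were Gal (0.221), Ccl5 (0.255) and Chrng (0.267), and for Myf5 Slc14a1 (0.293), Gatm (0.458) and Rspo4 (0.489).

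The remaining members had neighbors of mixed kinds. They were Slc6a6, Htt and Abca1 for Pax7 (0.0300 to 0.0610), Mc5r, mt-Nd6 and Dnajb5 for Mef2c (0.132 to 0.170), Smim5, Cxcl11 and Ccl12 for Mymk (0.202 to 0.224) and Ccr7, Tmem278 and Slc35e4 for Mymx (0.0862 to 0.117). Pax3 averaged under 1 CPM and was not matched. With 5 tumors many genes share a profile closely, so these likenesses are descriptions.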

How the data were processed

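Tumor RNA was sequenced as 150-base paired-end libraries after depletion of ribosomal RNA. After trimming with Trimmomatic (0.39), the authors used STAR (2.7.10a) to align reads to GRCm39 with the CIC::DUX4 construct added, and deposited raw counts per gene from featureCounts (Subread 2.0.3). Per the file headers, each mate was counted, strand was ignored, and reads with several alignments or over several genes were left out, so counts on genes with close copies are too low. Only Mef2c lay over another annotated gene, with 0 shared exon bases. The table held 9 of 10 labelled libraries. R2 of 3802 was not analysed here. Symbols were joined by Ensembl identifier (56017 of 56750 features, 98.7%).

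Duplicates are 1 RNA divided, so their counts were summed and the tumor was the replicate (3 dFLEx, 2 KP). The study's tables list the dFLEx numbers as separate mice, and for the KP numbers no such entry was found in the sources used here. Counts were filtered with filterByExpr, scaled by TMM and compared with edgeR 4.0.16 (glmQLFit, glmQLFTest, no covariates), with Benjamini-Hochberg adjustment over 24743 genes and a threshold of 0.05. Each SE was the size of the log2 fold change over the root of its F statistic. Exact permutation tests used SciPy 1.17.1. Alternatives were DESeq2 1.42.0, limma 3.58.1, other scalings, filters and units of replication, a background correction and each tumor left out.

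A count of 3 was 0.0365 to 0.146 CPM in the tumor sums, and the precision of low genes was limited by such counts. The members, the lists and the tests were chosen with earlier results of these data known. Named beside the members were related genes past the threshold, otherwise the genes with the largest and the smallest log2 fold change of each list, and the 3 genes nearest in profile. Other genes are said to have been named after their values were seen. The R1 and R2 numbers name aliquots, and differences between duplicates did not correlate across tumors (r from -0.018 to 0.021). Some genes of the lists and 1 allele of the KP genotype are not reported here.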

Additional observations from a re-analysis of the deposited data

How the results depend on the processing

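The number of tumors, 3 and 2, limits every call. Myf5 kept its direction under 18 alternatives (-6.96 to -5.43) and passed the threshold under 12, with adjusted p up to 0.184. Myog (-4.77 to -3.44) and Myod1 (-4.05 to -2.53) passed under 6 of 18, Mymk (-3.07 to -1.98) under 5, Mymx (-1.99 to -1.42) under 3, Myf6 (1.40 to 4.04) under 1 and Pax7 (-2.11 to -0.24) under 0. Over these alternatives only Pax3 without 3802 (1.43; -2.76 to 1.43 with each tumor left out) and Mef2c without 170024 (-0.01; -0.01 to 1.14) changed sign. Pax3 was not tested at a mean of at least 1 CPM.

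Treating libraries as independent samples counts divided RNA as replicates. It called 5 of the 9 members, 51 related genes and 3344 of all genes with edgeR, and 6, 66 and 4828 with DESeq2. The duplicate number as a replicate block, on libraries, called 5, 38 and 2476, where the numbers do not pair samples. On tumor sums DESeq2 called 4, 30 and 1396, and limma-voom with tumor as a random term called 4, 25 and 543, against 0, 1 and 45. No filter called 3, 20 and 880, a mean of at least 1 CPM 1, 2 and 80, the first libraries alone 1 member and 3 related genes, background subtraction 1 and 2, and the robust fit 11 of all genes. DESeq2 size factors and the upper quartile called 1 member each (Myf5). The causes were not tested. Leaving out 1 tumor gave 0 to 1 members, 0 to 12 related genes and 0 to 414 of all genes. The 0 came without 170019 or 170024, where edgeR gave an unadjusted p under 0.05 for 1939 and 1414 genes, and the 414 without 3802. Of the 45 genes 25 were higher in dFLEx, against 14 of 34 with library totals and 17 of 50 with the upper quartile. The median over all genes was -0.18 with TMM, -0.47 with library totals, -0.34 with the upper quartile and -0.26 with DESeq2 size factors, and the directions of the 9 genes were the same under each.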
